A study of Mus musculus with 11 samples.

Results

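The subunits of Polycomb repressive complex 1 (PRC1) were examined in RNA-seq data from hematopoietic stem and progenitor cells (HSPCs) of mice that differ in p53. The set held 9 genes, Bmi1, Ring1, Rnf2, Cbx2, Cbx7, Cbx8, Phc1, Phc2, and Pcgf1, taken by symbol from a count table of 12647 genes. All 9 were present, and all 9 passed the filter on low counts that left 12625 genes for testing. None of the 9 passed an adjusted p-value of 0.05 between any pair of genotypes, and the 95% intervals reached 0.50 log2 units to either side at the median.

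PRC1 is a chromatin complex that silences genes. A RING subunit, encoded by Ring1 or Rnf2, adds a single ubiquitin to histone H2A. A PCGF subunit such as Bmi1 or Pcgf1 partners the RING protein and defines the type of complex. In some of these types, not in all, a CBX subunit reads the H3K27me3 mark left by PRC2, and a PHC subunit lets complexes assemble into larger arrays. In the bone marrow, Bmi1 is known as a gene that HSCs need for self-renewal, and exchange between CBX proteins has been linked to the choice between self-renewal and differentiation.

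The cells were LSKs, the Lin-Sca1+Kit+ fraction of bone marrow where HSCs and multipotent progenitors are found, from young, tumor-free mice of 3 genotypes on a C57BL/6 background, with 3 libraries for each genotype. The p53+/+ mice carried the HUPKI allele, a knock-in in which most of the p53 coding sequence is human and is driven by the endogenous mouse promoter. The p53R248W/+ mice were heterozygous for a p53 R248W mutation placed on that humanized allele. The p53-/- mice lacked p53, and whether they also derived from the humanized line is not given in the sources used here, so loss of p53 and loss of the humanized allele cannot be told apart. The study compared these genotypes to learn how mutant p53 acts in HSPCs and whether it acts as loss of p53 does. Nothing in the labels says that the libraries of a genotype came from separate mice, so the p-values measure only the spread between these samples. In bulk LSKs, fewer cells of a type and less RNA per cell cannot be told apart.

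Library totals ranged from 18021375 to 29750702 counts. In CPM, the read count scaled by library size with TMM factors, Trp53 itself read 125, 207, and 376 in p53+/+, 219, 240, and 235 in p53R248W/+, and 129, 127, and 112 in p53-/- LSKs. The p53-/- libraries thus overlapped p53+/+ replicate 1, and as the exons that the null allele lacks are not given in the sources used here, these counts do not check the labels. The p53 target Cdkn1a lay apart in p53-/- libraries, at 8.27 to 17.8 CPM in p53-/- LSKs and 43.6 to 67.0 CPM in p53+/+ LSKs. All 8 LSK markers were present, with a summed level of 3140 to 4130 CPM in p53+/+, 3385 to 3958 CPM in p53R248W/+, and 4072 to 4593 CPM in p53-/- LSKs. In p53-/- against p53+/+ LSKs only 1 of the 8 had a negative log2 fold change and 1 was called higher, against 6321 and 158 of 12625 genes. In p53R248W/+ against p53-/- LSKs 7 of the 8 were negative and 2 were called lower, against 6104 and 139 of 12625 genes. One library stood apart. In p53R248W/+ replicate 1 the longest 10% of genes deviated from the mean of the genotype by -0.47 log2 units on average, against -0.17 to 0.27 in the other libraries, and this was also the deepest library. Y-linked genes summed to between 0.101 and 110 CPM in p53+/+ libraries and between 0.216 and 184 CPM in p53R248W/+ libraries, but to at most 0.0491 CPM in p53-/- libraries, so libraries with and without Y-linked transcripts were mixed in the first 2 genotypes and not in p53-/-. All 10 proliferation markers had a negative log2 fold change in p53-/- against p53+/+ LSKs, where 6321 of 12625 genes had. Of the 10, 3 were called lower, where 2.25% of all genes were. Their summed level was 409 to 884 CPM in p53-/- against 1090 to 1309 CPM in p53+/+ LSKs. The 7 granulocyte and monocyte markers summed to 2829 to 5749 CPM in p53+/+, 4303 to 8183 CPM in p53R248W/+, and 2063 to 2499 CPM in p53-/- libraries, and the 3 T and NK markers in the table to 415 to 471, 428 to 540, and 264 to 342 CPM, with Cd3e, Cd3g, and Cd3d not in the table. The part of these values in the results below was not tested beyond the fits named with them.

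To show the regulatory sequence in front of members whose p53-/- libraries did not overlap those of another genotype, the 250 bases upstream of the transcription start are printed for Bmi1, Ring1, and Rnf2, from RefSeq on GRCm38.p6. Capitals mark the E-box (CACGTG) and the GC box. The GC box was searched as GGGCGG on both strands, so it also appears as its reverse complement, and overlapping boxes run together. The windows are chr2:18676768-18677017 on the plus strand for Bmi1, chr17:34024681-34024930 on the minus strand for Ring1, and chr1:151500992-151501241 on the minus strand for Rnf2, each written 5′ to 3′ along its gene.
Bmi1: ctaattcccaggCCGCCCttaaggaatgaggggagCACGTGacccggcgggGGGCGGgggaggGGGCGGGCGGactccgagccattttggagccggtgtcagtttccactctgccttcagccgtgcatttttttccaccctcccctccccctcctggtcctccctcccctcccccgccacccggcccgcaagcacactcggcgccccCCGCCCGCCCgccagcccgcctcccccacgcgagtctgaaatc
Ring1: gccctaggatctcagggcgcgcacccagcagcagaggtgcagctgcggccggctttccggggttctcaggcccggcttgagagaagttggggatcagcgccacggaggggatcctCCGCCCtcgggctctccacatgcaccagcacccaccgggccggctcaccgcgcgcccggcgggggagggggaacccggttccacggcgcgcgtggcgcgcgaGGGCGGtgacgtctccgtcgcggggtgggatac
Rnf2: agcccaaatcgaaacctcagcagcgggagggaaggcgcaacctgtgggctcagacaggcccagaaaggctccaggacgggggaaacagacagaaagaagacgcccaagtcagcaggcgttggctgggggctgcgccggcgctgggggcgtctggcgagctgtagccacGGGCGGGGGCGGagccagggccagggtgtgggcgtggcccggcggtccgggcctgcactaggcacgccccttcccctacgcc

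The Bmi1 window held 1 E-box and 6 GC boxes, the Ring1 window 2 GC boxes, and the Rnf2 window 2 GC boxes. Both strands were searched in 32817 RefSeq windows of the same length, of which 6.02% held the E-box and 32.7% the GC box. CpG dinucleotides numbered 21 in the Bmi1 window, 30 in the Ring1 window, and 20 in the Rnf2 window, against a median of 6 over all windows. A search for the p53 response element, written as 2 half-sites up to 13 bases apart, found it in 0.0640% of all windows and in none of the 9 windows of the 7 members matched to the table (Bmi1, Ring1, Rnf2, Cbx7, Cbx8, Phc1, and Phc2). Such matches describe letters and are not binding sites. At so low a share, 9 windows would rarely hold a match, so its absence does not show that the members lack p53 sites. Cbx2 and Pcgf1 were not matched.

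In p53+/+ LSKs the members spanned a 5.79-fold range of level per length (CPM per kb of the deposited gene length). Rnf2, the catalytic subunit of most PRC1, was at 38.8 ± 6.36 CPM per kb (SD, n = 3, as for all values of this kind here), and Phc2, a polyhomeotic subunit, at 30.4 ± 2.99 CPM per kb. Bmi1 followed at 20.9 ± 0.693 CPM per kb and Ring1, the other RING ligase, at 16.9 ± 0.921 CPM per kb. The chromodomain genes Cbx2 and Cbx8 lay at 14.5 ± 1.24 and 13.3 ± 1.28 CPM per kb, with Pcgf1, which works in a non-canonical PRC1 with Kdm2b and Bcor, between them at 13.9 ± 1.23 CPM per kb. Phc1 at 9.76 ± 1.47 CPM per kb and Cbx7 at 6.70 ± 0.483 CPM per kb were the lowest of the 9. Among all genes tested, these levels ran from percentile 77.6 for Rnf2 to percentile 38.8 for Cbx7, so the subunits were neither among the most abundant nor among the scarce transcripts of LSKs.

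Neighbours in this order were not all separated. The p53+/+ libraries of Rnf2 and Phc2 overlapped, as did those of Cbx2 and Pcgf1 and those of Pcgf1 and Cbx8. Rnf2 nevertheless lay above Phc2 in 9 of 9 libraries, Bmi1 above Ring1 in 9, and Phc1 above Cbx7 in 8, whereas Cbx2 lay above Pcgf1 in 3. The order also rests on the deposited lengths, which come from an annotation that is not named. With the union of all exons in GENCODE M21 as the length, Rnf2 stayed highest at 28.5 CPM per kb and Cbx7 lowest at 2.99 CPM per kb. Bmi1 and Phc2 were close at 18.9 and 18.8 CPM per kb. Cbx2 at 12.7 CPM per kb then stood above Ring1 at 10.6 CPM per kb. Pcgf1 was at 7.35 CPM per kb, and Cbx8 at 5.04 CPM per kb fell below Phc1 at 7.25 CPM per kb.

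**Figure D1:**
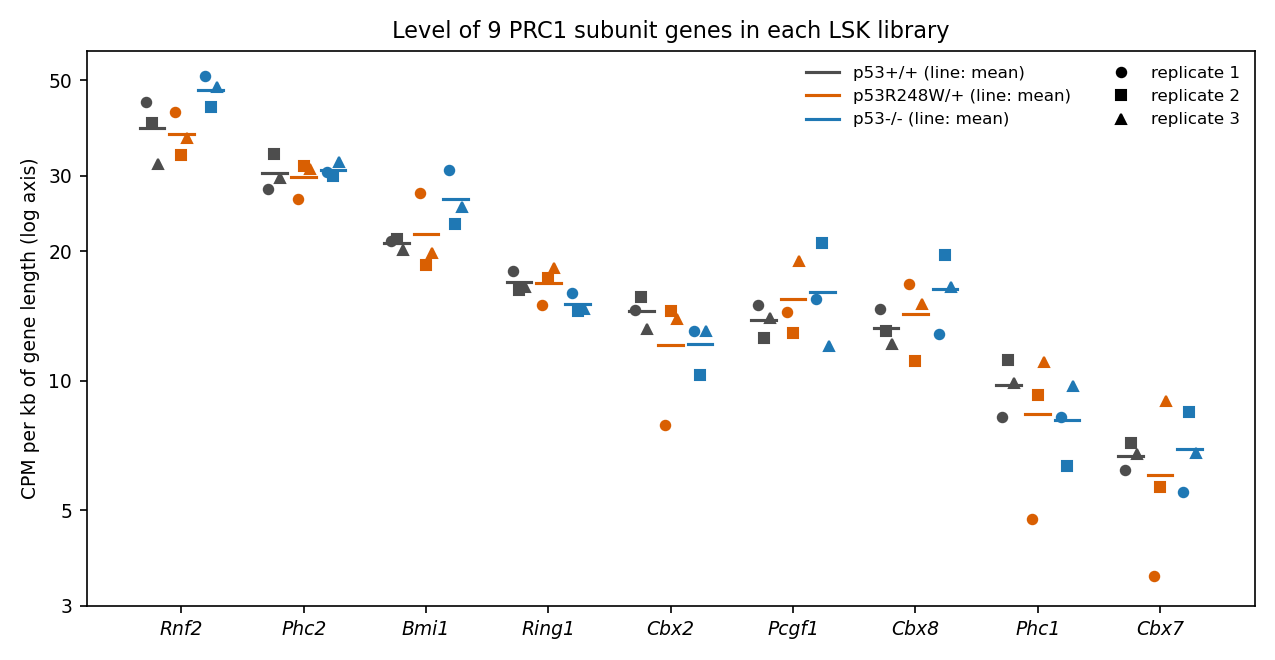
Level of each PRC1 subunit gene in each LSK library, in CPM per kb of deposited gene length on a log axis, with points for single libraries (shape gives the replicate) and lines for the mean of a genotype (n = 3). Rnf2 sits highest and Cbx7 lowest, and p53R248W/+ replicate 1 is the lowest point for Cbx2, Phc1, and Cbx7.

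The members differed in their spread between replicates. Within genotypes the SD of log2 CPM was 0.106 for Ring1 and 0.118 for Phc2, which placed them at percentiles 2.36 and 3.64 of all genes tested. Phc1 and Cbx7 varied most, with SDs of 0.429 and 0.430, both at percentile 71.9. The median over the members was 0.263, against 0.313 over all genes tested.

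The p53R248W/+ LSKs were first compared with p53+/+ LSKs, which asks whether 1 mutant allele altered transcript levels of PRC1. No member was called (adjusted p = 1.00 for each of the 9, edgeR quasi-likelihood test with Benjamini-Hochberg adjustment), where 0.00792% of all genes tested, a single gene, was called. By unadjusted p-values below 0.05 the counts were 0 of 9 members and 121 genes (0.958%), and DESeq2 and limma-voom called 0 of 9 members among the 6 genes and 1 gene that they called in all. The libraries of the 2 genotypes overlapped for all 9 members, while 5.04% of genes did not overlap. The log2 fold change was positive for 3 members and negative for 6, and its median was -0.03, against 0.01 over all genes.

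Among the RING genes, Ring1 read 36.6, 33.1, and 33.7 CPM in p53+/+ and 30.5, 35.3, and 37.2 CPM in p53R248W/+ LSKs. The p53R248W/+ values lay on both sides of the p53+/+ values, and the log2 fold change was -0.00 with a 95% interval from -0.37 to 0.36. Rnf2 read 135, 121, and 96.9 CPM in p53+/+ and 128, 102, and 111 CPM in p53R248W/+ LSKs, a log2 fold change of -0.05 (95% interval -0.43 to 0.33). Both intervals lie within 0.43 log2 units of no change.

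Bmi1 read 76.2, 76.9, and 72.3 CPM in p53+/+ LSKs and 98.2, 67.0, and 71.2 CPM in p53R248W/+ LSKs. Only p53R248W/+ replicate 1 lay above the p53+/+ libraries, and the other 2 lay below them. The log2 fold change was 0.07 (SE 0.18, 95% interval -0.33 to 0.47) with that library and -0.13 without it. Pcgf1 had a log2 fold change of 0.16 (95% interval -0.42 to 0.73).

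The CBX and PHC genes showed the pull of the same library. Cbx2 read 54.5, 58.7, and 49.5 CPM in p53+/+ and 29.5, 54.4, and 52.1 CPM in p53R248W/+ LSKs. Its log2 fold change of -0.26 (SE 0.23, 95% interval -0.76 to 0.24) became -0.04 without p53R248W/+ replicate 1, the 1 library far below the rest. Cbx7 read 17.9, 20.7, and 19.5 CPM in p53+/+ and 10.2, 16.4, and 25.9 CPM in p53R248W/+ LSKs, so the mutant libraries lay both below and above all controls, and its log2 fold change went from -0.15 (95% interval -0.82 to 0.52) to 0.12 without that replicate. Phc1 moved from -0.22 (95% interval -0.85 to 0.40) to 0.05 and Cbx8 from 0.11 (95% interval -0.40 to 0.62) to -0.03. Phc2 had a log2 fold change of -0.03 (95% interval -0.37 to 0.30), the narrowest interval of the 9. None of these values passed the test with or without that library. With Y-linked expression added to the design, unadjusted p-values (edgeR) were under 0.05 for 2 of 9 members and for 859 of 12625 genes. In that fit the log2 fold change was -0.48 for Cbx2, -0.54 for Phc1, and -0.46 for Cbx7. Their adjusted p-values were then 0.646, 0.646, and 0.668 (edgeR).

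The p53-/- LSKs were then compared with p53+/+ LSKs, which asks what loss of p53 does to the same genes. Again no member was called, although 3.50% of all genes tested were (442 genes, 158 higher and 284 lower, edgeR). At an unadjusted p-value below 0.05 there were 0 of 9 members and 2950 genes (23.4%), and DESeq2 and limma-voom called 0 of 9 members among 1552 and 297 genes. The libraries of 3 members did not overlap between the genotypes, Bmi1 higher and Ring1 and Cbx2 lower in p53-/- LSKs, where 31.4% of all genes did not overlap, so 3 of 9 is close to the background. Positive values were seen for 6 members and negative values for 3. The median of the log2 fold change was 0.05 (-0.00 over all genes), and that of its absolute value was 0.255 (0.329 over all genes).

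Bmi1 read 111, 83.3, and 91.2 CPM in p53-/- LSKs, each above the p53+/+ range of 72.3 to 76.9 CPM. The log2 fold change was 0.34 (SE 0.18, 95% interval -0.06 to 0.74), a 1.27-fold difference whose adjusted p-value of 0.288 (unadjusted p = 0.0884, edgeR) missed the threshold. The interval admits values from slightly lower to 1.68-fold higher. Pcgf1 read 13.5, 18.3, and 10.5 CPM against 13.2, 11.0, and 12.2 CPM in p53+/+, with libraries on both sides of the controls and a log2 fold change of 0.22 (95% interval -0.36 to 0.79).

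The 2 RING genes leaned in opposite directions. Ring1 read 32.6, 29.6, and 29.9 CPM in p53-/- LSKs, all below the lowest p53+/+ library at 33.1 CPM, by a margin that is small beside the spread (log2 fold change -0.17, SE 0.17, 95% interval -0.53 to 0.20, adjusted p = 0.585 by edgeR). Rnf2 read 155, 131, and 146 CPM, of which 1 library fell within the p53+/+ range of 96.9 to 135 CPM and 2 lay above it (log2 fold change 0.29, SE 0.17, 95% interval -0.09 to 0.67, adjusted p = 0.333 by edgeR).

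Of the CBX genes, Cbx2 read 48.9, 38.6, and 48.9 CPM in p53-/- LSKs, with 2 libraries just below the lowest p53+/+ library at 49.5 CPM and replicate 2 further below it. Its log2 fold change was -0.25 (SE 0.23, 95% interval -0.76 to 0.25, adjusted p = 0.538 by edgeR). Cbx8 read 17.9, 27.3, and 23.0 CPM against 20.5, 18.2, and 17.0 CPM, with 2 of 3 p53-/- libraries above all controls and a log2 fold change of 0.30 (95% interval -0.21 to 0.80). Cbx7, the CBX gene most often tied to HSC self-renewal, read 16.0, 24.4, and 19.7 CPM and lay on both sides of the controls, with a log2 fold change of 0.05 (95% interval -0.62 to 0.72). Phc1 read 32.5, 24.9, and 38.3 CPM in p53-/- LSKs against 32.4, 43.9, and 38.9 CPM in p53+/+ LSKs (log2 fold change -0.27, 95% interval -0.89 to 0.36), with 1 library below all controls. Phc2 read 134, 130, and 140 CPM against 122, 147, and 129 CPM (log2 fold change 0.02, 95% interval -0.31 to 0.36). In the fit that added Y-linked expression to the design the log2 fold change was -0.07 for Cbx2, -0.01 for Phc1, and 0.27 for Cbx7, and none was called.

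**Figure D2:**
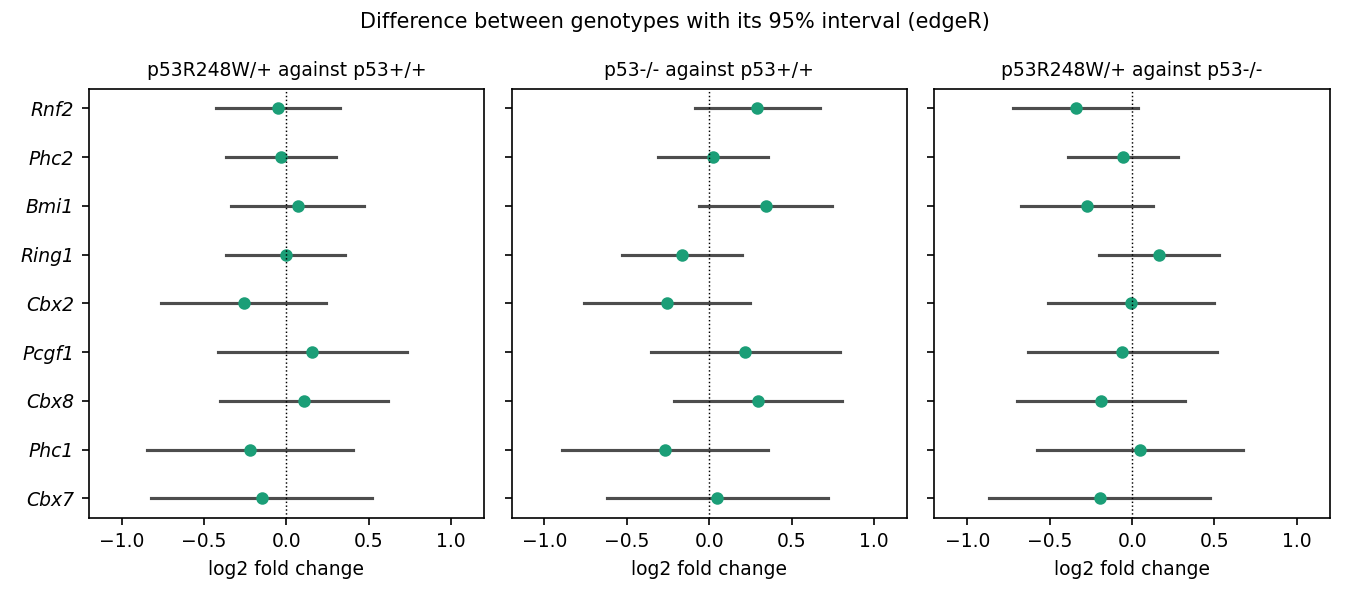
Log2 fold change of each PRC1 subunit gene (points) with its 95% interval (lines) in the 3 comparisons, from 1 edgeR fit to 9 libraries. Every interval crosses 0, and the ones that come nearest to leaving it are Bmi1 in p53-/- against p53+/+ (-0.06 to 0.74) and Rnf2 in p53R248W/+ against p53-/- (-0.72 to 0.04).

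The direct comparison of p53R248W/+ with p53-/- LSKs asks whether the mutant allele and loss of p53 give different levels. No member was called, where 3.44% of all genes tested were (434 genes, edgeR). By unadjusted p-values below 0.05 there were 0 of 9 members and 2657 genes (21.0%), and DESeq2 and limma-voom called 0 of 9 members among 1325 and 333 genes. Rnf2 was the 1 member of 9 without overlap, at 102 to 128 CPM in p53R248W/+ and 131 to 155 CPM in p53-/- LSKs, where 24.2% of all genes did not overlap. Its log2 fold change was -0.34 (SE 0.17, 95% interval -0.72 to 0.04, unadjusted p = 0.0720, adjusted p = 0.285 by edgeR). Bmi1 had a log2 fold change of -0.27 (95% interval -0.68 to 0.13, adjusted p = 0.432 by edgeR).

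For this comparison p53R248W/+ replicate 1 again set part of the result. Without it the log2 fold change was -0.49 for Bmi1 (adjusted p = 0.0716 by edgeR) and -0.46 for Rnf2 (adjusted p = 0.106 by edgeR). Neither passed the threshold, and the adjusted p-value of Bmi1 was the smallest that any member had in any of the 18 alternative fits. The other 7 members had log2 fold changes between -0.20 (Cbx7) and 0.16 (Ring1) with all libraries, with Cbx2 at -0.01 (95% interval -0.51 to 0.50). In the fit that added Y-linked expression to the design the log2 fold change was -0.40 for Cbx2, -0.73 for Cbx7, and -0.53 for Phc1, and none passed the threshold (smallest adjusted p = 0.249, edgeR).

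As the comparisons share libraries, their values are set side by side and not counted against each other. For Bmi1 the log2 fold change against p53+/+ was 0.07 in p53R248W/+ and 0.34 in p53-/- LSKs. For Rnf2 these values were -0.05 and 0.29, and for Cbx2 -0.26 and -0.25. The half-width of the 95% intervals ranged from 0.33 for Phc2 to 0.67 for Cbx7 on the log2 scale, so that smaller differences than these could not be told from none in either direction.

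The balance between paralogues was then described as the share of each gene in the summed level per length of its family within a library, a value that does not depend on the library scaling. The shares are given as a description, without a test. Rnf2 made up 69.4% ± 3.03 (SD, n = 3) of the RING pair in p53+/+, 68.8% ± 4.32 in p53R248W/+, and 75.9% ± 0.968 in p53-/- LSKs. The ratio of Rnf2 to Ring1 was 2.48, 2.45, and 1.93 in p53+/+ libraries, 2.82, 1.93, and 2.01 in p53R248W/+ libraries, and 3.19, 2.97, and 3.29 in p53-/- libraries. The 3 p53-/- libraries were thus the highest of the 9 for any choice of gene length, which multiplies all 9 ratios alike. Ring1 was among the 31.4% of single genes that did not overlap between p53-/- and p53+/+ LSKs, and Rnf2 overlapped there. Rnf2 was among the 24.2% without overlap between p53-/- and p53R248W/+ LSKs, and Ring1 overlapped there. These are shares of single genes, and the share among ratios of 2 genes was not computed.

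Within the PCGF genes Bmi1 held 16.9% ± 0.558 (SD, n = 3) in p53+/+, 17.9% ± 3.14 in p53R248W/+, and 20.9% ± 2.52 in p53-/- LSKs. The p53-/- libraries, at 18.1% to 23.0%, lay above the p53+/+ libraries at 16.3% to 17.4%. The level of Bmi1 itself was among the 31.4% of single genes without overlap here, so this share is not a separate observation. Pcgf5, a subunit of non-canonical PRC1, held 48.7% in p53+/+ LSKs by the deposited length of 1509 bases but 15.8% by the GENCODE union of 12629 bases, and Bmi1 then held 41.6% in p53+/+ and 47.3% in p53-/- LSKs. Which PCGF gene leads therefore depends on the annotation. Pcgf1 held 11.2% in p53+/+, 12.7% in p53R248W/+, and 12.7% in p53-/- LSKs by the deposited length, and Pcgf2, the closest paralogue of Bmi1, 0.448%, 0.627%, and 0.438%.

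Among the PHC genes Phc2 held 74.0%, 76.7%, and 77.5% and Phc1 23.6%, 20.8%, and 20.1% in p53+/+, p53R248W/+, and p53-/- LSKs, and in p53R248W/+ replicate 1 Phc2 held 83.9%.

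**Figure D3:**
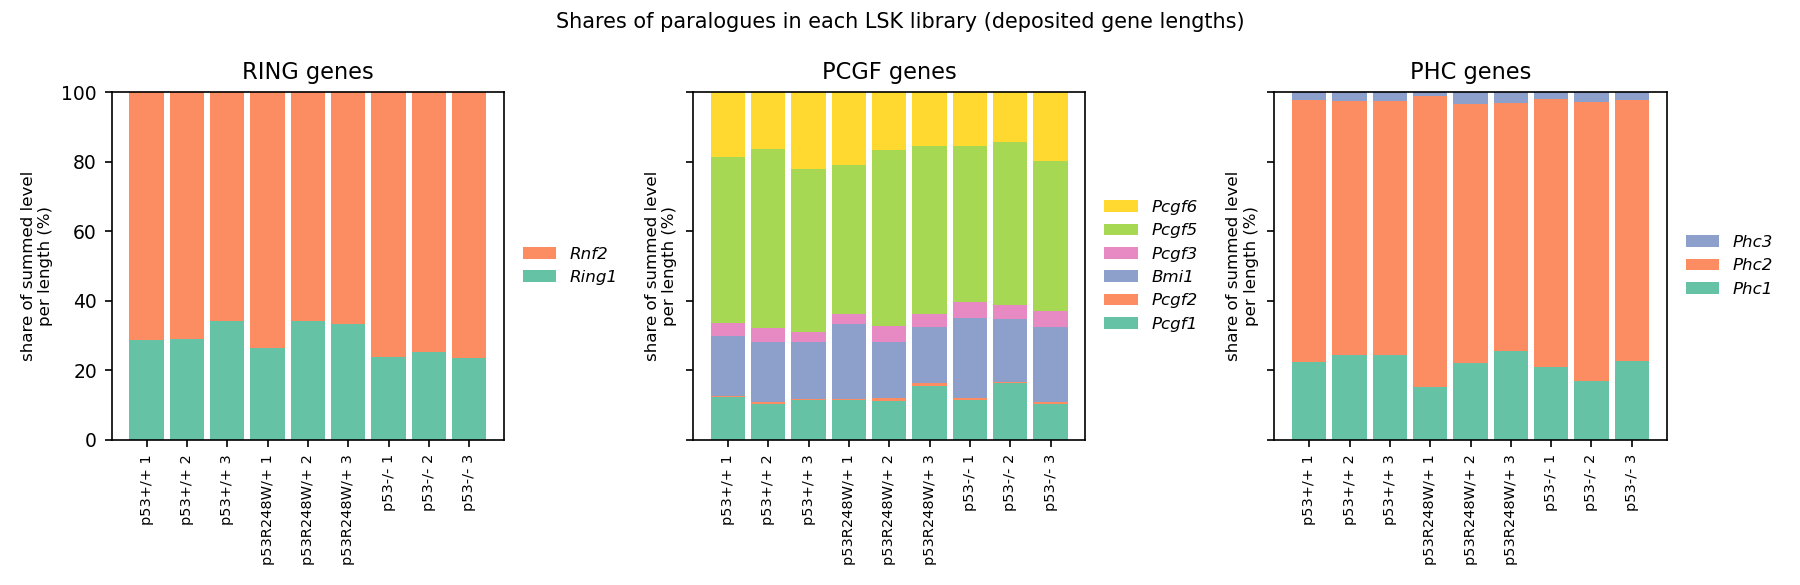
Stacked bars give the share (%) of each paralogue in the summed CPM per kb of the RING, PCGF, and PHC genes in every LSK library, with deposited gene lengths. The Rnf2 part of the RING bars is largest in the 3 p53-/- libraries (74.8% to 76.7%), and p53R248W/+ replicate 1 differs from its group in the PHC bars (Phc2 at 83.9%).

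The gene positions bear on how firmly 2 members can be read. In GENCODE M21 on GRCm38, the build of the mm10 alignment, Rnf2 (chr1:151458004-151500955, minus strand) overlaps Trmt1l on the opposite strand and Gm36527 on its own, and Cbx7 (chr15:79915807-79971119, minus strand) overlaps Apobec3 on the opposite strand. The SMART-Seq kit does not mark strand, so reads from shared bases cannot be told apart and the counts of these 2 genes are uncertain to that extent. Bmi1 (chr2:18677018-18686629, plus strand), Ring1 (chr17:34020792-34024680, minus strand), Phc1 (chr6:122317731-122340561, minus strand), Phc2 (chr4:128654702-128752881, plus strand), and Pcgf1 (chr6:83077869-83080855, plus strand) overlap no other gene there. Cbx2 (chr11:119022962-119031270, plus strand) and Cbx8 (chr11:119036305-119040969, minus strand) lie next to each other without overlap.

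Other PRC1 genes were read from the same fit, as a list of 28 subunits and partners, all of them tested. None was called in any of the 3 comparisons (edgeR), with 1, 2, and 1 genes at an unadjusted p-value below 0.05 in p53R248W/+ against p53+/+, p53-/- against p53+/+, and p53R248W/+ against p53-/-, where 0.958%, 23.4%, and 21.0% of all genes were. These were Max, Mga with Skp1a, and Mga, named after their values were seen. The median log2 fold changes of the list were -0.06, -0.09, and 0.11. Max, the DNA-binding partner of Mga in the PRC1 that holds Pcgf6, read 91.8, 87.4, and 84.4 CPM in p53R248W/+ and 49.5, 47.6, and 44.9 CPM in p53+/+ libraries, without overlap, where 5.04% of all genes did not overlap, but 98.0, 25.8, and 40.2 CPM in p53-/- libraries. The log2 fold change in p53R248W/+ was 0.89 (SE 0.36, adjusted p = 1.00 by edgeR). Skp1a, which joins the Pcgf1 complex through Kdm2b, read 837, 1095, and 793 CPM in p53-/- and 667, 424, and 521 CPM in p53+/+ libraries (log2 fold change 0.76, adjusted p = 0.115 by edgeR). It was called without p53R248W/+ replicate 1, with an adjusted p-value of 0.0283. Of the paralogues of members, Cbx6 had a log2 fold change of 0.22 and Pcgf5 of -0.08 in p53-/- against p53+/+ LSKs, and neither was called.

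Removal of ubiquitin from H2A is the opposite reaction to that of the RING subunits. The list for it held 9 genes, all tested, of which Bap1, Usp16, and Mysm1 encode deubiquitinases and Asxl1, Asxl2, Mbd5, Mbd6, Foxk1, and Foxk2 encode partners of Bap1. In p53-/- against p53+/+ LSKs 9 of 9 had a negative log2 fold change (median -0.44, against -0.00 over all genes), where 6321 of 12625 genes had. The libraries of 4 of 9 did not overlap, where 31.4% of all genes did not. In p53R248W/+ against p53+/+ LSKs 7 of 9 were negative (median -0.14), where 5994 of 12625 genes were. Asxl2 was furthest from 0 in p53-/- against p53+/+ LSKs, at -0.95, and was not called (adjusted p = 0.0549 by edgeR). Only 1 gene of the list was called lower there, where 2.25% of all genes were. This was Usp16, an H2A deubiquitinase, at 18.9, 17.7, and 15.8 CPM in p53-/- and 25.2, 34.5, and 37.7 CPM in p53+/+ libraries. The p53-/- libraries lay below every other library, where 31.4% of all genes did not overlap p53+/+ and 24.2% did not overlap p53R248W/+ (log2 fold change -0.89, SE 0.21, adjusted p = 0.0416 by edgeR). The call was lost in 9 of 18 alternatives, among them limma-voom (adjusted p = 0.0609) and the edgeR fit with the Y-linked level (adjusted p = 0.0552). It was also lost in the edgeR fits without p53+/+ replicate 2 (0.136), p53+/+ replicate 3 (0.173), or p53R248W/+ replicate 2 (0.0642) or 3 (0.0569). The same held without any 1 of the p53-/- libraries (0.0955 to 0.102). Over the 18 alternatives the log2 fold change stayed between -1.05 and -0.77. In p53R248W/+ LSKs Usp16 read 31.8, 37.9, and 43.0 CPM, a log2 fold change of 1.10 against p53-/- (adjusted p = 0.0224 by edgeR), a call that 2.34% of all genes shared in that direction and which was lost in 6 of 18 alternatives with adjusted p-values of at most 0.0938.

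Of 12 PRC2 genes 11 were in the table and tested, and Ezh2, the methyltransferase that writes H3K27me3, was the 1 called lower in p53-/- against p53+/+ LSKs, where 2.25% of all genes were. It read 76.4, 68.0, and 60.4 CPM in p53-/- libraries against 98.5, 111, and 134 CPM in p53+/+ and 120, 130, and 129 CPM in p53R248W/+ libraries, and the p53-/- libraries did not overlap the others, where 31.4% of all genes did not overlap between p53-/- and p53+/+ and 24.2% between p53-/- and p53R248W/+. The log2 fold change was -0.74 (SE 0.17, adjusted p = 0.0377 by edgeR) against p53+/+, lost in 7 of 18 alternatives, all of them with 1 library left out (adjusted p = 0.0541 to 0.157, without p53+/+ replicate 2 or 3, p53R248W/+ replicate 2 or 3, or any p53-/- replicate). In p53R248W/+ against p53-/- it was 0.89 (adjusted p = 0.0224 by edgeR), where 2.34% of all genes were called higher, and this call was lost in 5 of 18. The proliferation genes, at 409 to 884 CPM in p53-/- and 1090 to 1309 CPM in p53+/+ LSKs, were lower in the same libraries as Usp16 and Ezh2, and their part in these 2 differences was not tested. Of 4 genes described as repressed by Bmi1-containing PRC1, 1 was in the table, the B lymphoid factor Ebf1. It read 0, 0, and 0.638 CPM in p53-/- and 2.02, 1.54, and 0.837 CPM in p53+/+ libraries. Its highest level in any library was 3.47 CPM, in p53R248W/+ replicate 3. The difference between p53-/- and p53+/+ was -2.75 log2 units (adjusted p = 0.166 by edgeR), a size that rests in part on libraries without counts.

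**Figure D4:**
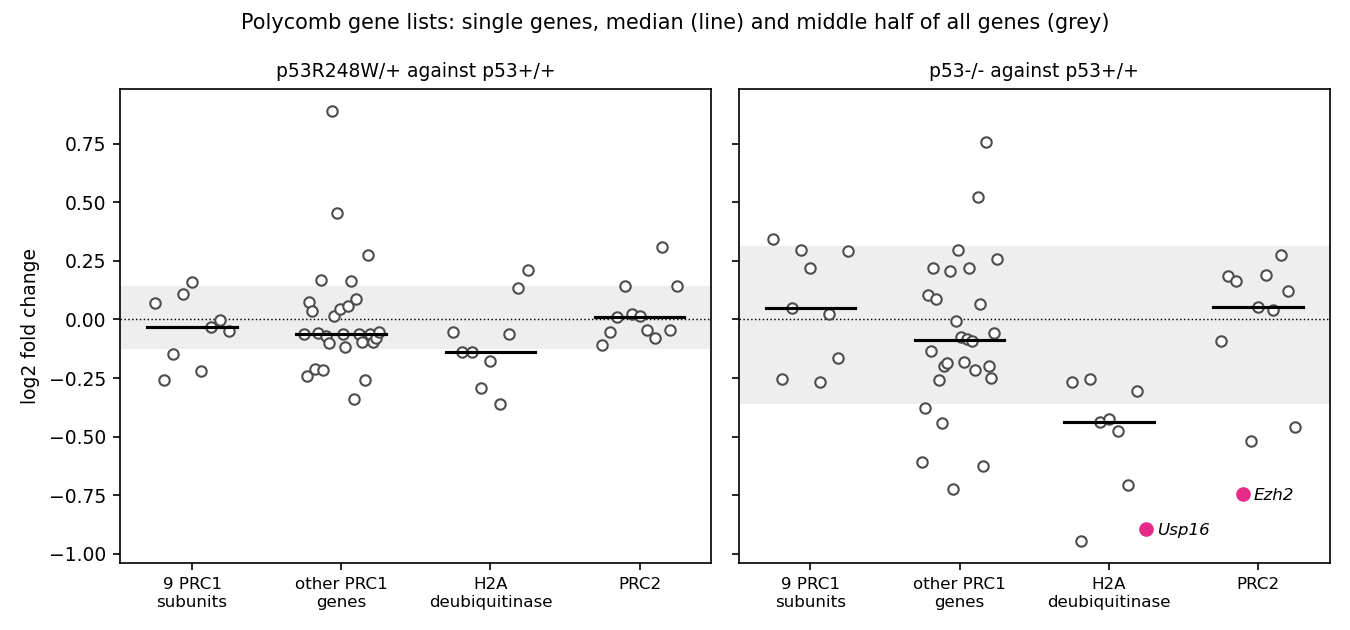
Log2 fold changes of single genes in 4 Polycomb lists, for p53R248W/+ against p53+/+ (left) and p53-/- against p53+/+ (right), with filled points for adjusted p-values below 0.05, black lines for list medians, and a grey band for the middle 50% of all genes tested. No PRC1 gene is filled in either panel, and Usp16 (-0.89) and Ezh2 (-0.74) are filled in p53-/-.

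The pattern of Bmi1 over the 9 libraries was compared with that of 11483 genes, as a description over points that share genotypes and library depth. The genes most like it were Hccs (Pearson r = 0.977), Ddx28 (r = 0.977), and Pla2g4a (r = 0.968). Rnf2 was the member nearest to it (r = 0.822), and Ring1 the farthest (r = -0.624). Bmi1 and Rnf2 were both high in p53R248W/+ replicate 1 relative to the other p53R248W/+ libraries, and both were highest of all in p53-/- replicate 1.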

How the data were processed

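RNA was sequenced from LSKs of 3 genotypes, 3 libraries each; 2 H3K27me3 ChIP-seq samples of Lin-Kit+ cells were not analysed here. The labels name the SMART-Seq v4 kit. Per gene, the authors deposited whole-number read counts that had not been normalized. The submitters' processing notes name STAR 2.5.2b, featureCounts, Subread 1.5.0, edgeR, and mm10. The lowest total of a gene is 37 counts, so rarer genes had been left out before deposit. The gene lengths deposited by the authors come from an annotation not given in the sources used here. Further columns hold the authors' own comparisons (fold change, p-value, FDR) and were not used.

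Groups were taken from the sample titles. Counts were fitted with edgeR 4.0.16 in R 4.3.3 (filterByExpr, TMM factors, 1 quasi-likelihood fit to 9 libraries, Benjamini-Hochberg adjustment over 12625 genes, threshold 0.05), after testing on simulated data. Intervals are 95% and follow from the fitted log2 fold change and its SE. The common biological coefficient of variation was 0.281. At 18021375 to 29750702 counts per library, the members held at least 214 counts in every library. Levels per length are CPM divided by gene length in kb, and the shares among CBX genes are not reported here. Replicate numbers were not taken to pair libraries, as the labels state no pairing or batch. Same-numbered deviations correlated at 0.361, 0.543, and 0.0388 (p53R248W/+ with p53+/+), where different numbers gave -0.476 to 0.00934. For p53-/- with p53+/+ the same-numbered values were -0.0946 to 0.00567. The main fit may thus leave out a pairing of p53R248W/+ with p53+/+ libraries, and a fit with a replicate block is given below.

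DESeq2 1.42.0, limma 3.58.1 (voom), other size factors, filters, covariates, sample sets, and each library left out were the alternatives; removal of a length trend and the GENCODE lengths were chosen after seeing the data. All 9 members were named, with genes of other lists that were called or are paralogues of a member, and the 3 genes most like Bmi1. Outside this rule, Max, Mga, and Skp1a were named after their values were seen, Ebf1 as the only gene of its list in the table, and the H2A deubiquitinase list in full. The members and lists were chosen with earlier results of these data known.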

Additional observations from a re-analysis of the deposited data

How the results depend on the processing

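With 3 libraries a genotype and a 95% interval of 0.50 log2 units to either side at the median, small differences were not detectable, and the members held at least 214 counts in every library. No member was called in any of 18 alternatives in any comparison. Of 486 log2 fold changes of the members under these alternatives, 456 kept their sign and 30 reversed it. With 1 library left out, the values that reversed ranged from -0.13 to 0.17 for Bmi1, -0.0655 to 0.0632 for Ring1, -0.17 to 0.0617 for Rnf2, -0.55 to 0.12 for Cbx7, -0.0348 to 0.26 for Cbx8, -0.48 to 0.0515 for Phc1, -0.0898 to 0.0486 for Phc2, and -0.0165 to 0.27 for Pcgf1 in p53R248W/+ against p53+/+ LSKs, from -0.12 to 0.20 for Cbx7, -0.0343 to 0.10 for Phc2, and -0.0119 to 0.39 for Pcgf1 in p53-/- against p53+/+ LSKs, and from -0.16 to 0.20 for Cbx2, -0.59 to 0.0495 for Cbx7, -0.21 to 0.30 for Phc1, and -0.23 to 0.17 for Pcgf1 in p53R248W/+ against p53-/- LSKs. Phc1 in this last comparison also reversed, to -0.0379 with limma-voom, -0.53 with Y-linked expression added to the design, and -0.00954 with the length trend removed, which also turned Phc2 to 0.0186 in p53R248W/+ against p53+/+ LSKs. The cause was not tested.

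Of the other PRC1 genes, 1 was called in p53-/- against p53+/+ LSKs with DESeq2, with the 6 libraries compared, and with the length trend removed (Skp1a), and 0 to 1 with 1 library left out. In p53R248W/+ against p53-/- LSKs 0 to 2 were called with 1 library left out (Mga and Skp1a without p53R248W/+ replicate 1, Max without p53-/- replicate 1). Over all genes, p53-/- against p53+/+ LSKs gave 442 calls, but 1552 with DESeq2, 297 with limma-voom, 894 with the 6 libraries compared, 1192 with the length trend removed, and 37 to 1485 with 1 library left out. For p53R248W/+ against p53-/- LSKs these were 434, 1325, 333, 208, 883, and 77 to 1559, and 162 with the Y-linked level. Among the fits with 1 library left out, the largest count of both comparisons was the one without p53R248W/+ replicate 1. With a replicate block on the library numbers, 0 members were called in each comparison. Phc1 was then at -0.0139 in p53R248W/+ against p53-/- LSKs, and the calls over all genes were 2, 882, and 672. Libraries of p53R248W/+ and p53+/+ LSKs correlated best with their own number. In the titles, same-numbered libraries of these genotypes also share a form of name, and p53-/- libraries have another. What these forms mark is not given, so a batch that set p53-/- apart could not be told from genotype.

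The family shares moved by over 1 SD in 13 values and not in 5 without division by length, and in 14 values and not in 4 with GENCODE lengths.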
